A study of Mus musculus with 8 samples.

Results

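A set of 10 liver genes known to depend on the pulse pattern of growth hormone was followed across 4 groups of mice. They were taken from the array's own gene names: every probe carrying the name Nox4, Keg1, Moxd1, Cspg5, Nudt7, Susd4, Egfr, A1bg, Prom1 or Ntrk2 was used, which gave 22 of the 41174 probes. By prior knowledge of mouse liver, 7 of the genes are higher in males (Nox4, Keg1, Moxd1, Cspg5, Nudt7, Susd4 and Egfr) and 3 are higher in females (A1bg, Prom1 and Ntrk2), and they were described in these classes. Liver RNA was measured on 8 arrays of 1 colour, 2 in each group: the strains C57BL/6J and KKAy, each aged 4 or 11 weeks. C57BL/6J is a standard inbred strain, labelled as normal. KKAy mice, labelled as diabetic, bear the yellow agouti allele on the KK background and grow obese. All 4 groups ate standard chow and were fasted overnight, and no group was given an agent. The sources used here do not give the sex of the mice. Whether the arrays of a group stand for separate animals is not stated either, and p-values therefore measure the spread between these samples only, which may be technical.

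Growth hormone is released by the pituitary in separate pulses in adult male mice and in a more continuous way in females. In hepatocytes the hormone binds its receptor, the kinase Jak2 is activated, and the transcription factor Stat5b enters the nucleus, where it binds the sequence TTCNNNGAA. Intermittent Stat5b activity maintains male-biased genes and represses many female-biased ones, and the difference between the sexes appears at puberty, when male-biased genes rise and female-biased genes fall in males.

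The promoter windows below were taken from RefSeq on GRCm38.p6, each from 250 bases before the gene start to 50 bases after it. A window was found for 9 of the 10 genes, and Cspg5 had no entry. TTCNNNGAA, which reads alike on both strands, was found in the windows of 4 of these 9 genes: Nox4, Keg1, Moxd1 and A1bg. Nudt7, Susd4, Egfr, Prom1 and Ntrk2 had no such letters in their windows. Across all windows of this length, 8.3% held the sequence, and 9.55% of all genes held it in any window. It was found in 1 of 25 other male-biased genes (4%) and in 4 of 25 other female-biased genes (16%). The 4 windows are printed because they hold the letters, which members of both classes carry. Capitals mark TTCNNNGAA, and a match is a description of the letters only. A link between the letters and the changes with age was not tested.
Nox4: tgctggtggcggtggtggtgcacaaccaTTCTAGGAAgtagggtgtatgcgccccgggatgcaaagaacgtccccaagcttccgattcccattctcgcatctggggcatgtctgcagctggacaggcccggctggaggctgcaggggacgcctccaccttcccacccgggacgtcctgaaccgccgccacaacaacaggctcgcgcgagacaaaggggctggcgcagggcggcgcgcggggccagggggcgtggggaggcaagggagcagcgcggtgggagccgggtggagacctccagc
Keg1: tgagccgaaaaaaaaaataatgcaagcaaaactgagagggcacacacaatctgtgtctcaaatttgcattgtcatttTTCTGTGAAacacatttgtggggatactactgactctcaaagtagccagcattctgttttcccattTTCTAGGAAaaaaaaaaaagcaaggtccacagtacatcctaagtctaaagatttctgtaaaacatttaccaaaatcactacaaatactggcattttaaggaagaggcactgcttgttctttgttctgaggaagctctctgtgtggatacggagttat
Moxd1: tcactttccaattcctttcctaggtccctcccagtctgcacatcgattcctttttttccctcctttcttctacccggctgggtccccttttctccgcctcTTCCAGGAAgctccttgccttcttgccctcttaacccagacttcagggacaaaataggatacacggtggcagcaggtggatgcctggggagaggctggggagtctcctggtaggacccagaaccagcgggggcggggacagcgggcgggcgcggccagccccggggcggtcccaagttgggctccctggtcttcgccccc
A1bg: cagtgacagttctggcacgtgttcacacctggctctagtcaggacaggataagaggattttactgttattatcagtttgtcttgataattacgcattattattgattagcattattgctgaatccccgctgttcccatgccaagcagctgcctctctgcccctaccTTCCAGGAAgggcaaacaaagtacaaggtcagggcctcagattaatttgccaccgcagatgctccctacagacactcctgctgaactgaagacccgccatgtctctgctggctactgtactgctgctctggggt
The Nox4 window is chr7:87246399-87246698 on the plus strand, and its match, TTCTAGGAA, begins 222 bases before the gene start. The Keg1 window, chr19:12695540-12695839 on the plus strand, has 2 matches, TTCTGTGAA at 173 and TTCTAGGAA at 107 bases before the start. The Moxd1 window is chr10:24223267-24223566 on the plus strand, with TTCCAGGAA at 150 bases before the start. The A1bg window is chr15:60921221-60921520 on the minus strand, and the same letters, TTCCAGGAA, lie 84 bases before its start. The male-biased Moxd1 and the female-biased A1bg shared an identical match.

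Values are given as relative signal, the processed fluorescence of a probe divided by the 75th percentile of its array, so a value of 1 is the level of that percentile. Differences are on the log2 scale of that signal with their standard error (SE), from 1 limma fit over 25319 probes with Benjamini-Hochberg adjustment over all of them, and a difference was called at an adjusted p under 0.05. Probes of a gene differ in brightness, so levels were compared only within a probe. Of the 22 probes, 21 were tested, being well above background on every array of some group. Moxd1 passed only through the 11-week groups and A1bg only through the 4-week groups, so that some difference with age was built into their passing. The 75th percentile ranged from 476.1 to 1191.9 fluorescence units over the arrays, 56.3% to 66.7% of spots were well above background, and replicate arrays had a median SD of 0.126 to 0.222 (log2), depending on the group. Slide 1 held all 4-week arrays and slide 2 all 11-week arrays, which means that age cannot be told apart from slide. Strain goes with position, since C57BL/6J took positions 1 and 2 of each slide and KKAy the other two.

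From 4 to 11 weeks 3 of the 7 male-biased genes rose in C57BL/6J and 6 of 7 in KKAy, and A1bg fell in both strains. In C57BL/6J, Nox4, Moxd1 and Susd4 rose and A1bg fell. In KKAy, the male-biased genes other than Egfr rose, A1bg and Prom1 fell, and Ntrk2 rose. By the brightest probe of each gene, limma called 4 of the 10 genes in C57BL/6J, 3 higher and 1 lower at 11 weeks, where 1.64% of all genes were called higher and 6.05% lower. In KKAy it called 9 of 10, 7 higher and 2 lower, where 7.63% of all genes were called higher and 10.5% lower. The median change of the 7 male-biased genes was 0.91 in C57BL/6J and 2.10 in KKAy on the log2 scale, against 0.05 and 0.02 over all genes. The 10 genes were chosen with earlier results of these data known, so these counts and medians are no independent evidence. None of the 7 (0) was called lower with age in either strain by limma; at an unadjusted p under 0.05, 1 was lower, Keg1 in C57BL/6J. With the replicate number as a block, 7 of 10 genes were called in C57BL/6J, since Cspg5 (0.91, adjusted p = 0.0258), Keg1 (-0.32, adjusted p = 0.0121) and Egfr (0.21, adjusted p = 0.0302) passed as well; Keg1 then counted as lower at 11 weeks. The block raised the count over all 17049 genes as well, from 1311 to 5411 (31.7%). Leaving out either C57BL/6J array of either age lowered the count in C57BL/6J, both for the 10 genes and over all genes. The count of the 10 genes in KKAy did not change without any of the 8 arrays in turn, although the count over all genes fell each time.

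**Figure D1:**
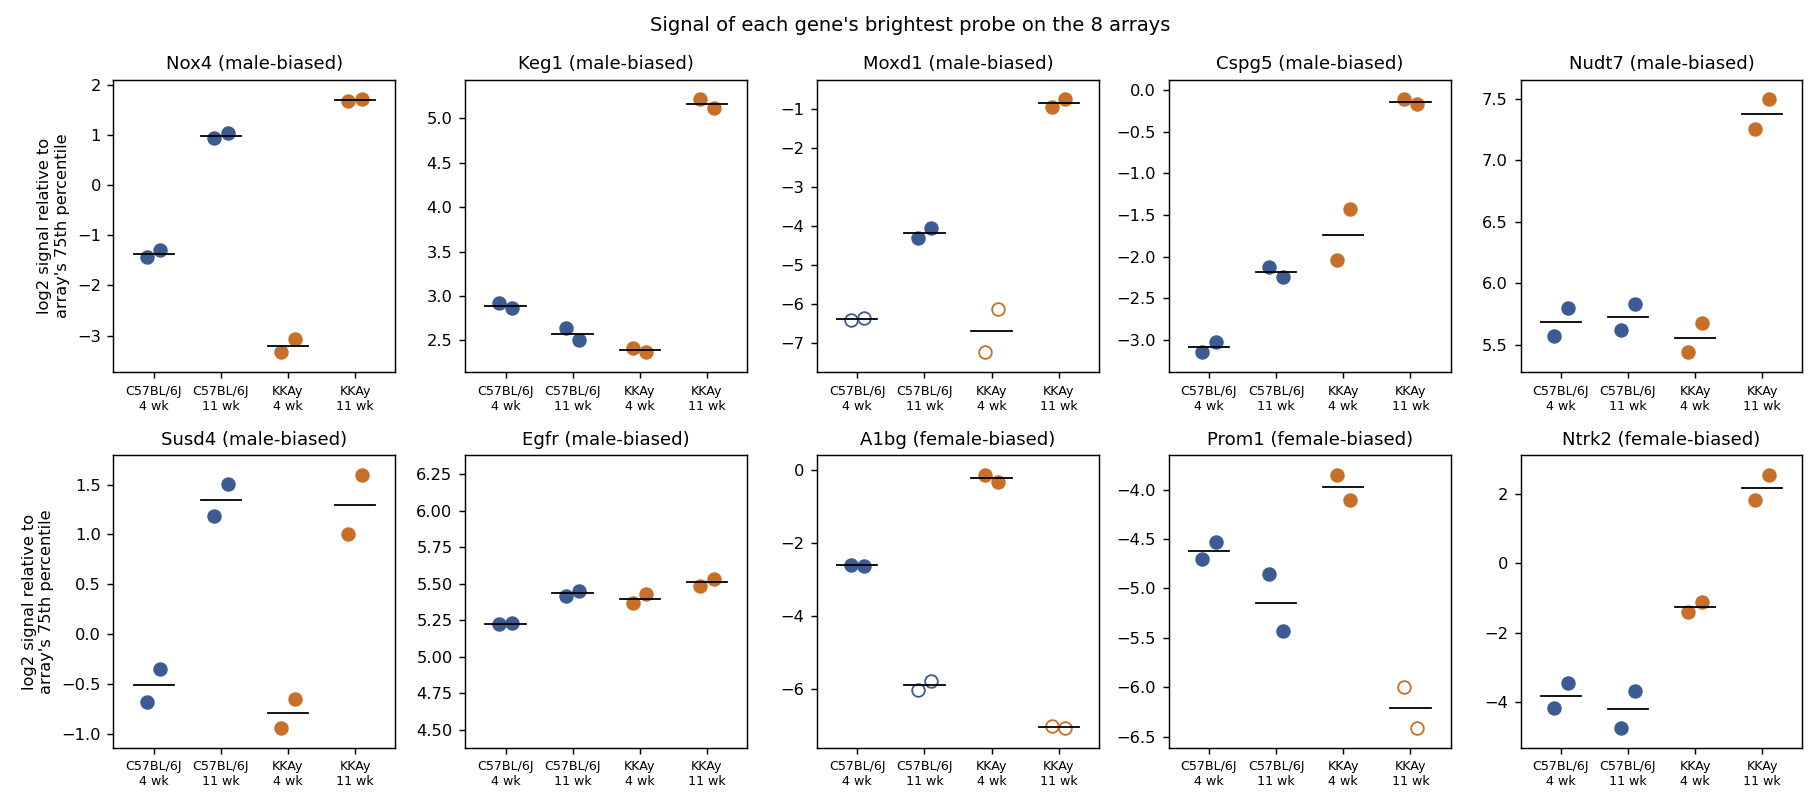
Signal of the brightest probe of each of the 10 genes on all 8 arrays, on the log2 scale relative to the array's 75th percentile; each circle is 1 array, filled where the probe was well above background and open where it was not, and the line is the mean of 2 arrays. The KKAy arrays at 11 weeks were the highest of all 8 for Nox4, Keg1, Moxd1, Cspg5, Nudt7, Egfr and Ntrk2, and the lowest for A1bg and Prom1.

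Nox4 encodes an NADPH oxidase that makes hydrogen peroxide. Its brightest probe (chr7:87272933-87272992 on mm8, plus strand) read 0.369 and 0.408 in C57BL/6J at 4 weeks and 1.93 and 2.05 at 11 weeks. In KKAy it read 0.099 and 0.119 at 4 weeks and 3.22 and 3.29 at 11 weeks. The 4 groups did not overlap, and their order, from low to high, was KKAy then C57BL/6J among the young mice, followed by C57BL/6J and KKAy of 11 weeks. Nox4 rose 5.12-fold with age in C57BL/6J (log2 difference 2.36, SE 0.13, adjusted p = 0.000769) and 30-fold in KKAy (4.91, SE 0.13, adjusted p = 6.23e-05). It was thus lower in KKAy than in C57BL/6J at 4 weeks (-1.84, SE 0.13, adjusted p = 0.000711) and higher at 11 weeks (0.71, SE 0.13, adjusted p = 0.0136). That strain difference at 11 weeks was the smallest of the 4 and was lost without any 1 of the 4 arrays compared, with adjusted p from 0.0501 to 0.1. The second Nox4 probe, whose span of chr7:87199709-87214729 on mm8 is longer than a probe, gave the same calls in each comparison, with changes of 2.18 and 4.43; in KKAy at 4 weeks it was not well above background, so the KKAy rise was at least 15.7-fold.

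Keg1 encodes a glycine N-acyltransferase-like protein first described in kidney. Its brightest probe (chr19:12786453-12786512 on mm8, plus strand) read 7.55 and 7.27 in C57BL/6J at 4 weeks, 6.25 and 5.68 at 11 weeks, 5.35 and 5.15 in KKAy at 4 weeks, and 37.1 and 34.8 in KKAy at 11 weeks. The 11-week KKAy arrays stood far above the 6 others, which lay close together without overlap between groups. Keg1 rose 6.85-fold with age in KKAy (2.78, SE 0.11, adjusted p = 0.000148), whereas in C57BL/6J it was -0.32 (SE 0.11, adjusted p = 0.168; 0.0121 with the replicate block). Between strains it was 6.03-fold higher in KKAy at 11 weeks (2.59, SE 0.11, adjusted p = 0.000114) and slightly lower at 4 weeks (-0.50, SE 0.11, adjusted p = 0.0284). The difference at 4 weeks was not called without any 1 of the 4 arrays compared (adjusted p 0.109 to 0.151), without either C57BL/6J array of 11 weeks (0.067), or when arrays were scaled to spike-in controls (-0.21, adjusted p = 0.514). A second probe, starting 142 bases further along, gave 2.71 with age in KKAy and -0.30 in C57BL/6J.

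Moxd1 encodes a monooxygenase-like protein of the endoplasmic reticulum related to dopamine beta-hydroxylase. Its only probe (chr10:23991818-23991876 on mm8, plus strand) read 0.0118 and 0.0122 in C57BL/6J at 4 weeks and 0.0066 and 0.0143 in KKAy at 4 weeks, none of these well above background. At 11 weeks it read 0.0507 and 0.0604 in C57BL/6J and 0.519 and 0.59 in KKAy. Both 4-week groups overlapped, and both 11-week groups stood above them and apart from each other. The rise with age was at least 3.11-fold in C57BL/6J (measured 2.21, SE 0.35, adjusted p = 0.019) and at least 21.1-fold in KKAy (5.83, SE 0.35, adjusted p = 0.000521), and Moxd1 was 10-fold higher in KKAy than in C57BL/6J at 11 weeks (3.32, SE 0.35, adjusted p = 0.00206). The bound sets the brighter group against the lowest signal that was still well above background on the dimmer arrays. In C57BL/6J the rise was not called without any 1 of the 4 arrays compared (adjusted p 0.103 to 0.135) or with another background correction (0.99, adjusted p = 0.0947).

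Cspg5, a transmembrane chondroitin sulfate proteoglycan with an EGF-like domain, read 0.113 and 0.123 in C57BL/6J at 4 weeks, 0.229 and 0.212 at 11 weeks, 0.243 and 0.372 in KKAy at 4 weeks, and 0.927 and 0.892 at 11 weeks on its brightest probe (chr9:110096236-110096295 on mm8, plus strand). It was higher in KKAy at both ages, without overlap between strains. The age change was 0.91 in C57BL/6J (SE 0.21, adjusted p = 0.0606; 0.0258 with the replicate block) and 1.60 in KKAy (SE 0.21, adjusted p = 0.00612; 0.0669 in a fit of the 4 KKAy arrays alone). KKAy exceeded C57BL/6J 2.56-fold at 4 weeks (1.35, SE 0.21, adjusted p = 0.00938) and 4.13-fold at 11 weeks (2.05, SE 0.21, adjusted p = 0.00182). The call at 4 weeks was lost without C57BL/6J replicate 1 of that age (1.29, adjusted p = 0.0634) or replicate 2 (1.42, adjusted p = 0.0507). On the second probe, which starts 11288 bases further along, the age change in C57BL/6J was called (1.07, SE 0.13, adjusted p = 0.00784), as was that in KKAy (2.10, SE 0.13, adjusted p = 0.00066).

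Nudt7 encodes a peroxisomal nudix hydrolase that degrades coenzyme A and its acyl esters. Its brightest probe (chr8:117038111-117038170 on mm8, plus strand) read 47.5 and 55.9 in C57BL/6J at 4 weeks, 49.2 and 56.9 at 11 weeks, 43.4 and 51.1 in KKAy at 4 weeks, and 153 and 180 in KKAy at 11 weeks. The first 3 of these groups overlapped, and the last stood alone. With age it rose 3.52-fold in KKAy (1.82, SE 0.16, adjusted p = 0.00182); in C57BL/6J the change was 0.04, with a 95% confidence interval from -0.36 to 0.43. At 11 weeks KKAy was 3.14-fold above C57BL/6J (1.65, SE 0.16, adjusted p = 0.00159), and at 4 weeks the strains differed by -0.13 (interval -0.52 to 0.27). The second probe gave 1.83 with age in KKAy and 0.00 in C57BL/6J.

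Susd4, a sushi-domain protein that inhibits complement, rose in both strains. Its probe (chr1:184732241-184732300 on mm8, plus strand) read 0.625 and 0.785 in C57BL/6J at 4 weeks and 2.27 and 2.84 at 11 weeks, beside 0.52 and 0.638 in KKAy at 4 weeks and 2.01 and 3.02 at 11 weeks. Arrays of the same age overlapped between strains, and arrays of different ages did not. The rise was 3.63-fold in C57BL/6J (1.86, SE 0.25, adjusted p = 0.0108) and 4.27-fold in KKAy (2.10, SE 0.25, adjusted p = 0.00476), and the changes differed by 0.24, with a 95% interval from -0.63 to 1.11. The call in C57BL/6J was lost without any 1 of its 4 arrays (adjusted p 0.0506 to 0.0892).

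Egfr, the receptor of epidermal growth factor and abundant on hepatocytes, moved least. Its brightest probe (chr11:16787385-16787444 on mm8, plus strand) read 37.4 and 37.6 in C57BL/6J at 4 weeks, 42.8 and 43.8 at 11 weeks, 41.4 and 43 in KKAy at 4 weeks, and 44.9 and 46.3 at 11 weeks. The change with age was 0.21 in C57BL/6J (interval -0.02 to 0.44; adjusted p = 0.309, 0.0302 with the replicate block) and 0.11 in KKAy (interval -0.12 to 0.34). The strain difference was 0.17 at 4 weeks (adjusted p = 0.328, 0.0392 with the replicate block) and 0.07 at 11 weeks (interval -0.16 to 0.30). Egfr has 6 probes over 161992 bases of chr11, and they disagreed in KKAy. The probe starting farthest along the gene read 2.29 and 1.57 in KKAy at 4 weeks and 4.93 and 3.46 at 11 weeks, a called rise (1.12, SE 0.29, adjusted p = 0.0472). The probe nearest the gene's beginning, which was well above background on only 1 of the 4 KKAy arrays, was called lower at 11 weeks (-1.76, SE 0.46, adjusted p = 0.0496; at least 1.23-fold). The 4 other probes were not called with age in KKAy, with changes from 0.11 to 0.52. In C57BL/6J none of the 6 (0) was called with age by limma, and 1 had an unadjusted p under 0.05 (0.31).

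**Figure D2:**
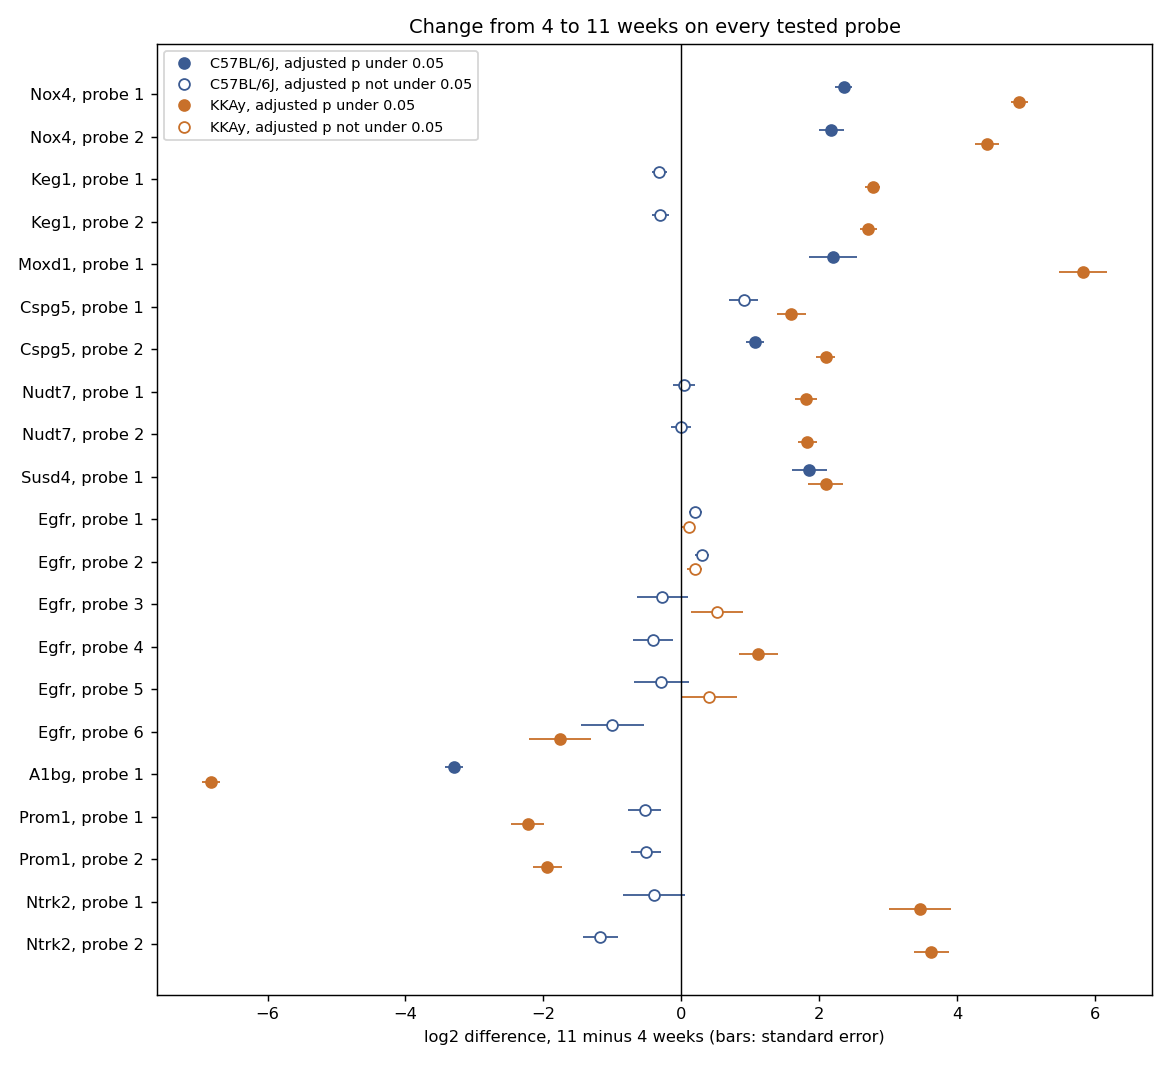
Change from 4 to 11 weeks on each of the 21 tested probes, as the log2 difference with its standard error, in C57BL/6J (blue) and KKAy (orange); filled circles passed an adjusted p of 0.05, and probe 1 is the brightest of its gene. In measured signal Nox4, Moxd1 and A1bg moved the same way in both strains and farther in KKAy. Both 4-week Moxd1 groups and both 11-week A1bg groups were below background, so the changes of these genes are bounds only. Keg1, Nudt7 and Ntrk2 rose in KKAy alone among the calls, and the 6 Egfr probes scattered on both sides of 0.

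A1bg encodes a secreted glycoprotein of the immunoglobulin superfamily. Its probe (chr15:60749396-60749455 on mm8, minus strand) read 0.167 and 0.163 in C57BL/6J at 4 weeks and 0.0153 and 0.0182 at 11 weeks. In KKAy it read 0.914 and 0.803 at 4 weeks and 0.00778 and 0.00741 at 11 weeks. All 4-week arrays were well above background and all 11-week arrays were not, so A1bg fell at least 8.71-fold in C57BL/6J (measured -3.30, SE 0.13, adjusted p = 0.000359) and at least 30.1-fold in KKAy (-6.82, SE 0.13, adjusted p = 3e-05). At 4 weeks it was 5.2-fold higher in KKAy (2.38, SE 0.13, adjusted p = 0.000367). At 11 weeks both strains were below background, so no fold is given; the measured difference was called (-1.14, SE 0.13, adjusted p = 0.00283) and was lost with another background correction (-0.10, adjusted p = 0.817).

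Prom1, the membrane glycoprotein also known as CD133 and a marker of progenitor and bile duct cells, was dim throughout. Its brightest probe (chr5:44282340-44282399 on mm8, minus strand) read 0.0384 and 0.0433 in C57BL/6J at 4 weeks, 0.0345 and 0.0231 at 11 weeks, 0.0692 and 0.0583 in KKAy at 4 weeks, and 0.0156 and 0.0117 in KKAy at 11 weeks, the last pair not well above background. The fall with age in KKAy was at least 2.23-fold (measured -2.23, SE 0.24, adjusted p = 0.00339) and was lost with the other background correction (-0.33, adjusted p = 0.353). In C57BL/6J the change was -0.53 (SE 0.24, adjusted p = 0.314). The second probe, starting 12079 bases along, gave -1.94 (adjusted p = 0.00351) and -0.51. Prom1 was lower in KKAy at 11 weeks (-1.06, SE 0.24, adjusted p = 0.0288), but that call had no fold bound above 1 and was lost, among others, without C57BL/6J replicate 1 of 11 weeks (-0.77, adjusted p = 0.138) or KKAy replicate 2 of 11 weeks (-0.85, adjusted p = 0.116), without either C57BL/6J array of 4 weeks (adjusted p = 0.0543) and after quantile normalization (-0.93, adjusted p = 0.0599); with the other background correction the sign turned (0.05). At 4 weeks the difference of 0.64 (adjusted p = 0.156) passed only under the replicate block (adjusted p = 0.047) or spike-in scaling (0.93, adjusted p = 0.0491). Of 10 tested markers of bile duct and progenitor cells, 1 rose (Onecut2, 0.60) and 1 fell (Cd24a, -1.55) with age in KKAy, and their summed relative signal was 17.1 to 19.6 in KKAy at 4 weeks and 19.3 to 22.3 at 11 weeks. Their median change was -0.20, and 3 were lower and 1 higher at an unadjusted p under 0.05. Over all genes 7.63% were called higher and 10.5% lower with age in KKAy. The part of these markers in the Prom1 result was not tested.

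Ntrk2 encodes TrkB, the receptor of brain-derived neurotrophic factor, made in a full-length form and in shorter forms without the kinase domain. Its brightest probe (chr13:58942004-58942061 on mm8, plus strand) read 0.0548 and 0.0903 in C57BL/6J at 4 weeks, 0.0368 and 0.0781 at 11 weeks, 0.375 and 0.458 in KKAy at 4 weeks, and 3.56 and 5.88 in KKAy at 11 weeks. Both C57BL/6J groups overlapped, KKAy at 4 weeks lay above them, and KKAy at 11 weeks was the highest. Although placed among the female-biased genes, Ntrk2 rose 11.1-fold with age in KKAy (3.47, SE 0.45, adjusted p = 0.00612), opposite to A1bg and Prom1; in C57BL/6J the change was -0.39 (SE 0.45, adjusted p = 0.754). It was 5.89-fold higher in KKAy than in C57BL/6J at 4 weeks (2.56, SE 0.45, adjusted p = 0.0155) and 85.4-fold higher at 11 weeks (6.42, SE 0.45, adjusted p = 0.000524), the widest strain difference of the set. The call at 4 weeks was lost without C57BL/6J replicate 1 of that age (2.20, adjusted p = 0.0886), and likewise without KKAy replicate 1 (2.70, adjusted p = 0.0602) and without KKAy replicate 2 (2.41, adjusted p = 0.0839). A second probe on the adjoining bases read 0.0137 and 0.0179 in C57BL/6J at 11 weeks, not well above background, against 1.83 and 2.7 in KKAy, at least 118-fold. The third probe, 197137 bases further along the gene, read 0.00324 to 0.00942 over the 8 arrays, was not well above background on any of them and was not tested.

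Between strains, the male-biased genes were split at 4 weeks and mostly higher in KKAy at 11 weeks. At 4 weeks 5 of the 10 genes were called: Cspg5, A1bg and Ntrk2 higher in KKAy, where 6.25% of all genes were called higher, and Nox4 and Keg1 lower, where 8.79% were called lower. At 11 weeks 8 were called: Nox4, Keg1, Moxd1, Cspg5, Nudt7 and Ntrk2 higher, where 9.81% of all genes were called higher, and A1bg and Prom1 lower, where 11.4% were called lower. Susd4 and Egfr were called at neither age, with intervals of -0.90 to 0.33 and -0.06 to 0.40 at 4 weeks and of -0.66 to 0.57 and -0.16 to 0.30 at 11 weeks. Without any 1 of the 4 arrays compared, the count at 4 weeks fell, both for the 10 genes and over all genes. Scaling arrays to spike-in controls moved the median of all genes at 4 weeks to 0.30 and the share of higher among called genes from 41.56% to 68.52%; at 11 weeks the share went from 46.28% to 57.73%, and for age in KKAy, where the median went to -0.16, from 42.18% to 21.88%. For age in C57BL/6J quantile normalization moved that share from 21.36% to 29.45%. The directions of the called member differences held under these scalings.

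**Figure D3:**
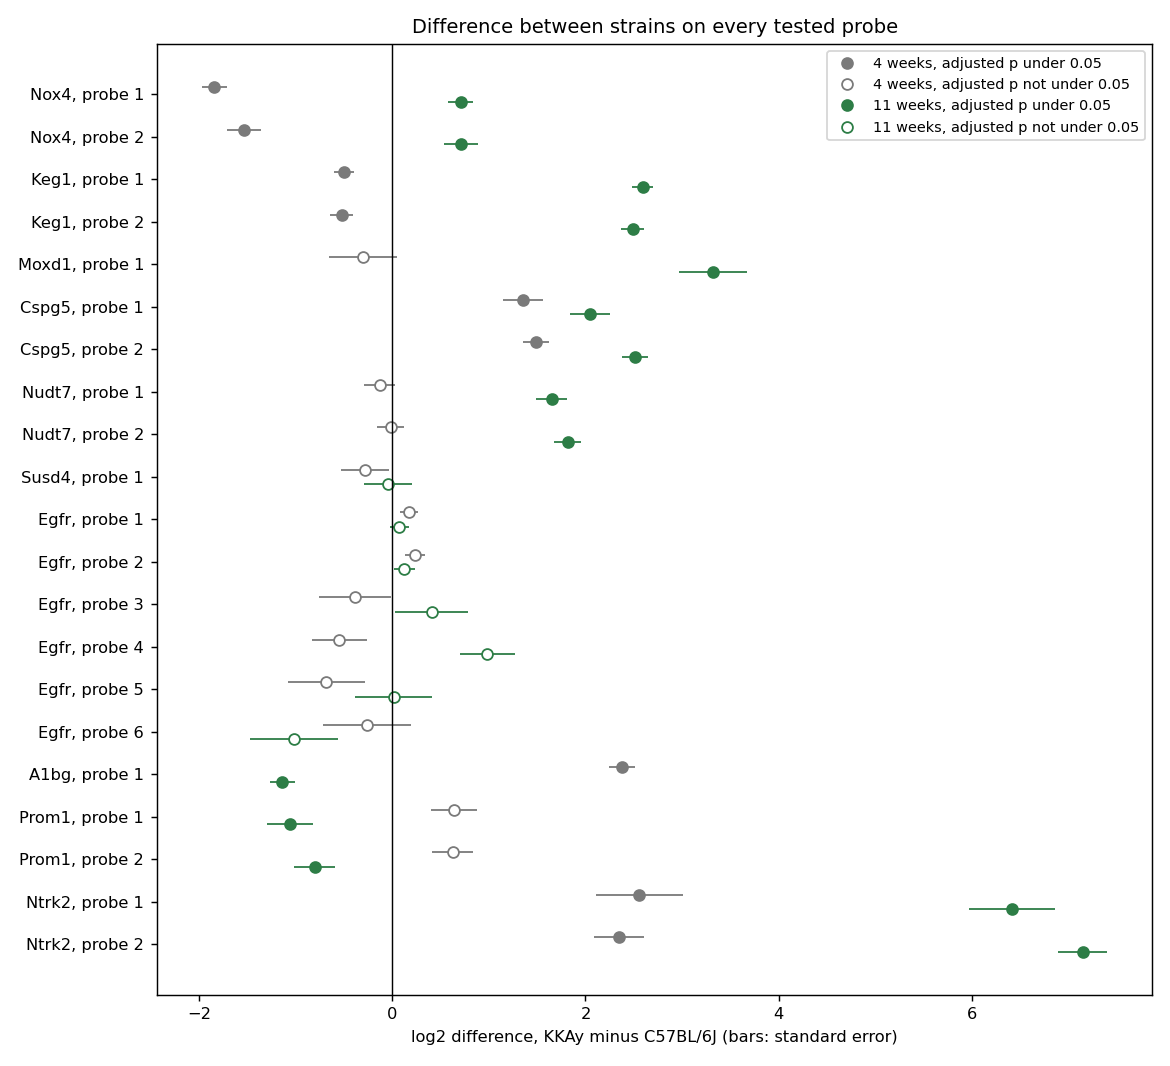
Difference between strains, KKAy minus C57BL/6J, on each of the 21 tested probes at 4 weeks (grey) and at 11 weeks (green), as the log2 difference with its standard error; filled circles passed an adjusted p of 0.05. Of the genes called at both ages, Nox4, Keg1 and A1bg lay on opposite sides of 0, and Cspg5 and Ntrk2 were higher in KKAy at both. Both 11-week A1bg groups were below background. The Ntrk2 difference of 6.42 at 11 weeks was the largest among brightest probes.

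The change with age itself differed between the strains for 6 of the 10 genes, by the interaction term of the limma fit. The KKAy change exceeded the C57BL/6J change for Nox4 (by 2.55, SE 0.18, adjusted p = 0.00392), Keg1 (3.09, SE 0.15, adjusted p = 0.00171), Moxd1 (3.62, SE 0.49, adjusted p = 0.024), Nudt7 (1.78, SE 0.23, adjusted p = 0.0199) and Ntrk2 (3.86, SE 0.64, adjusted p = 0.0394), where 1.81% of all genes were called higher. It was more negative for A1bg (-3.52, SE 0.19, adjusted p = 0.00233), where 1.5% of all genes were called lower. Both 11-week A1bg groups and both 4-week Moxd1 groups were below background, so these 2 interactions rest on levels that are bounds. Cspg5 (0.69, adjusted p = 0.313), Susd4 and Egfr (-0.10, adjusted p = 0.831) were not called, and Prom1 (-1.70, adjusted p = 0.0659) passed only under the replicate block (adjusted p = 0.0129) or spike-in scaling (-1.89, adjusted p = 0.0422). The calls for Nox4, Keg1 and A1bg held without each array in turn, and those for Moxd1, Nudt7 and Ntrk2 were lost without 6, 7 and 8 of the 8 arrays in turn, with adjusted p up to 0.133, 0.12 and 0.142. With spike-in scaling the share of higher among all genes with a called interaction went from 54.69% to 38.21%.

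Over the 8 arrays the genes fell along more than 1 pattern, given here as a description over points that share slides. In measured signal Nox4 and A1bg were near mirror images (Pearson r = -0.999), and Susd4 went with Nox4 (0.946). Keg1 went with Nudt7 (0.974), which were high on the 11-week KKAy arrays alone. Moxd1 lay between, with r = 0.882 to Nox4 and 0.885 to Keg1, and mirrored Prom1 (-0.954). Ntrk2 went with Cspg5 (0.915) more than with its class, at -0.299 to A1bg and -0.566 to Prom1. A1bg was not well above background in either strain at 11 weeks, nor was Moxd1 in either strain at the younger age. Prom1 was not well above background on the 11-week KKAy arrays. Every r of A1bg, Moxd1 and Prom1, here and below, therefore rests in part on signal that gives bounds only. Among 4838 named genes above background on all arrays with a range of at least 1 on the log2 scale, the gene most like Nox4 was Csad (0.996), an enzyme of taurine synthesis. Those most like Keg1 were C730027H18Rik (0.995) and Pafah1b3 (0.991), like Moxd1 Srd5a2 (0.991), a steroid 5-alpha-reductase, and Cryl1 (0.990), and like Cspg5 the acute-phase genes Orm2 (0.989) and Orm1 (0.988), which are near-identical copies. Nudt7 was most like Hsd3b4 (0.994) and Hnmt (0.992), Susd4 like Cyp7b1 (0.990), an oxysterol hydroxylase, and Cadm4 (0.989), and Egfr like Nat8f5 (0.995) and Tchh (0.980). A1bg was most like Bco1 (0.994), a carotene-cleaving enzyme, and Unc119 (0.993), Prom1 like Il1rn (0.991) and Cox10 (0.983), and Ntrk2 like Macrod2 (0.992) and Ndufaf5 (0.991). The r of these alike genes were picked as the highest of 4838 over 8 arrays and are no evidence of shared control. The Egfr probe itself ranged only from 5.22 to 5.53 on the log2 scale, less than the range of 1 asked of the candidates.

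Other genes known to be sex-dependent in mouse liver gave a wider view of the same classes. Over all genes 1.64% were called higher and 6.05% lower with age in C57BL/6J, and 7.63% and 10.5% in KKAy. Of 28 other male-biased genes tested, 7 rose and 1 fell with age in C57BL/6J (median 0.39), and 19 rose and 2 fell in KKAy (median 0.99). Of 28 other female-biased genes tested, limma called 0 higher (0 also at an unadjusted p under 0.05) and 12 lower in C57BL/6J (median -0.67), and 1 rose and 19 fell in KKAy (median -2.20). Nat8, an acetyltransferase with close copies in the genome, rose 12.8-fold in C57BL/6J and 8.41-fold in KKAy, and Elovl3, a fatty acid elongase, rose 5.39-fold and 26.4-fold. On its brightest probe Scara5, a ferritin receptor, rose in C57BL/6J (2.15, adjusted p = 0.00164) and fell in KKAy (-0.86, adjusted p = 0.0152), and was 19.1-fold higher in KKAy at 4 weeks. Its second probe was called by limma with age in neither strain (adjusted p = 0.267 in C57BL/6J and 0.967 in KKAy). That probe was below background in C57BL/6J at both ages and at least 2.57-fold higher in KKAy at 4 weeks. Among female-biased genes Sult3a1, a sulfotransferase, fell at least 12.9-fold and at least 20.3-fold (adjusted p = 0.000734 and 0.000101), and Hamp2, a hepcidin copy, fell 6.42-fold and 3.7-fold. Sult3a1 was below background in both strains at 11 weeks. It passed the filter only through the 4-week groups, so some fall with age was built into its passing. Between strains at 11 weeks, KKAy had the higher level in 12 of the other male-biased genes and the lower in 1; for the other female-biased genes the counts were 2 and 12. At 4 weeks the counts were 4 and 4, and 7 and 5. Over all genes 9.81% were called higher and 11.4% lower in KKAy at 11 weeks, and 6.25% and 8.79% at 4 weeks. The lists were drawn from general knowledge with earlier results of these arrays known, so their direction is no independent evidence.

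**Figure D4:**
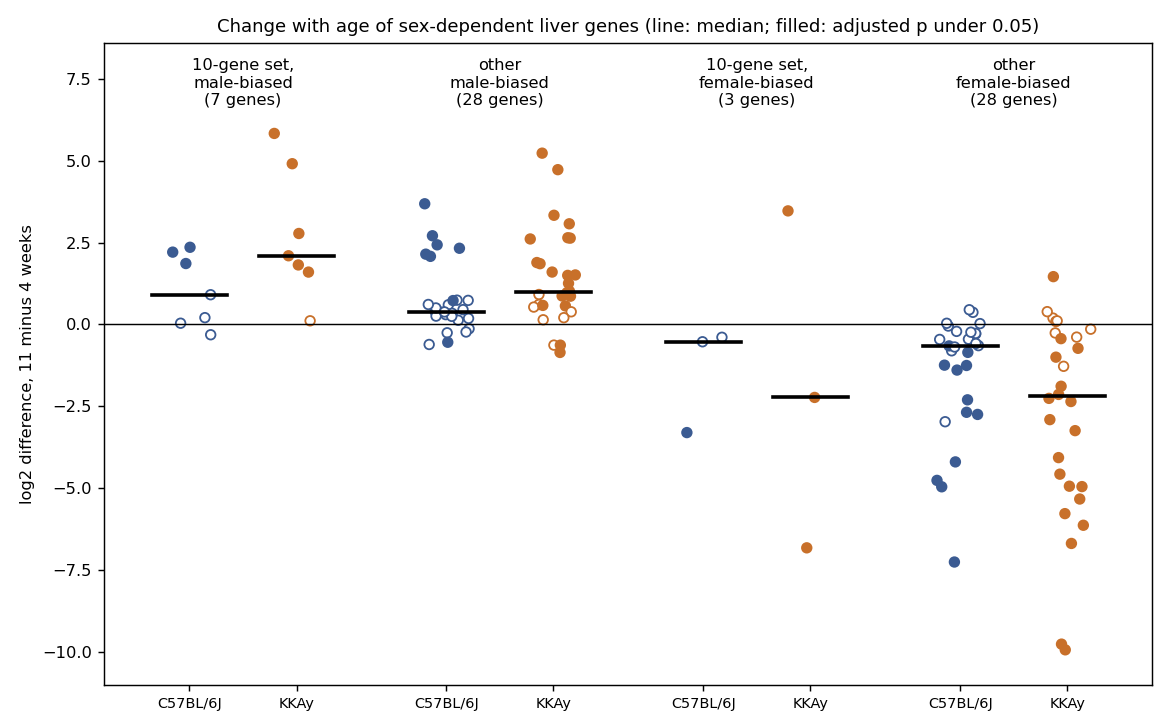
Change from 4 to 11 weeks of the 10 genes and of other sex-dependent liver genes in each strain, on the log2 scale; each circle is the brightest probe of 1 gene, filled where the adjusted p was under 0.05, and the line is the median. The other male-biased genes had medians of 0.39 and 0.99 in C57BL/6J and KKAy, the other female-biased genes -0.67 and -2.20, and the lone rising circle of the female-biased members in KKAy is Ntrk2 (3.47).

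Among 20 genes of growth hormone signalling, limma called 0 higher (0 also at an unadjusted p under 0.05) and 3 lower with age in C57BL/6J (median -0.09). Those that fell were Socs2, a feedback inhibitor induced by the hormone (-1.48, SE 0.16, adjusted p = 0.00521), Igfbp3, a carrier of IGF-1 (-1.05, SE 0.10, adjusted p = 0.00365), and Grb10, an adaptor that restrains growth signalling (-1.10, SE 0.11, adjusted p = 0.00431). Over all genes 1.64% were called higher and 6.05% lower with age in C57BL/6J, and 7.63% and 10.5% in KKAy. In KKAy 2 of the 20 rose and 3 fell (median 0.03). The growth hormone receptor gene Ghr rose 2.3-fold (1.20, SE 0.13, adjusted p = 0.00306), and Igfals, which encodes the acid-labile subunit of the IGF-1 complex, rose as well (1.50, SE 0.14, adjusted p = 0.00216). Igfbp3 (-1.21), Grb10 (-1.45) and Cish, another feedback inhibitor (-0.52, adjusted p = 0.0443), fell. The age change differed between strains for Ghr (1.04, adjusted p = 0.0438), Socs2 (2.00, adjusted p = 0.0139) and Igfals (1.49, adjusted p = 0.0226). At 11 weeks 6 of the 20 were higher in KKAy, among them Socs2 (1.63) and Cish (0.99), and 2 were lower. Over all genes 9.81% were called higher and 11.4% lower at that age. At 4 weeks 3 were higher and 2 lower, where 6.25% of all genes were called higher and 8.79% lower. Stat5b was 0.17 and 0.34 with age (adjusted p = 0.8 and 0.376), and Igf1 0.09 and 0.32 (adjusted p = 0.896 and 0.325). Other probes of these genes did not always follow. In KKAy 2 more Ghr probes rose (1.29 and 1.22) and 2 did not pass (0.13 and 0.09). The second Socs2 probe was -0.37 with age in KKAy, where the brightest was 0.52. None of the Socs2 calls above was made on that second probe. It gave -0.41 with age in C57BL/6J (adjusted p = 0.315) and 0.04 for the interaction (adjusted p = 0.973). Between strains at 11 weeks it gave -0.10 (adjusted p = 0.764). The second Igfbp3 probe was not called with age in either strain, and 1 Igf1 probe fell in both strains (-0.69 and -1.12).

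Of 16 transcription factors and chromatin genes tied to sex-dependent liver expression, 1 rose and 1 fell with age in C57BL/6J, and 2 rose and 5 fell in KKAy. Over all genes 1.64% were called higher and 6.05% lower with age in C57BL/6J, and 7.63% and 10.5% in KKAy. Cux2, a repressor found in female liver, fell with age in C57BL/6J (-1.41, adjusted p = 0.0243) and in KKAy (measured -1.73, adjusted p = 0.00757) and was lower in KKAy at both ages. It was not well above background in KKAy at 11 weeks, so the fall in KKAy was at least 1.17-fold and the difference between strains at 11 weeks at least 1.36-fold. Bcl6, a male-biased repressor, rose in KKAy (1.63, SE 0.35, adjusted p = 0.0291); in C57BL/6J it was -0.71 (adjusted p = 0.356), and it was lower in KKAy at 4 weeks (-1.65, adjusted p = 0.0297). The hepatocyte factors Hnf4a (0.06 and 0.04) and Onecut1 (0.26 and 0.39) were not called with age, and Onecut1 was higher in KKAy at 4 weeks (0.49, adjusted p = 0.0451) and at 11 weeks (0.62, adjusted p = 0.0158).

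**Figure D5:**
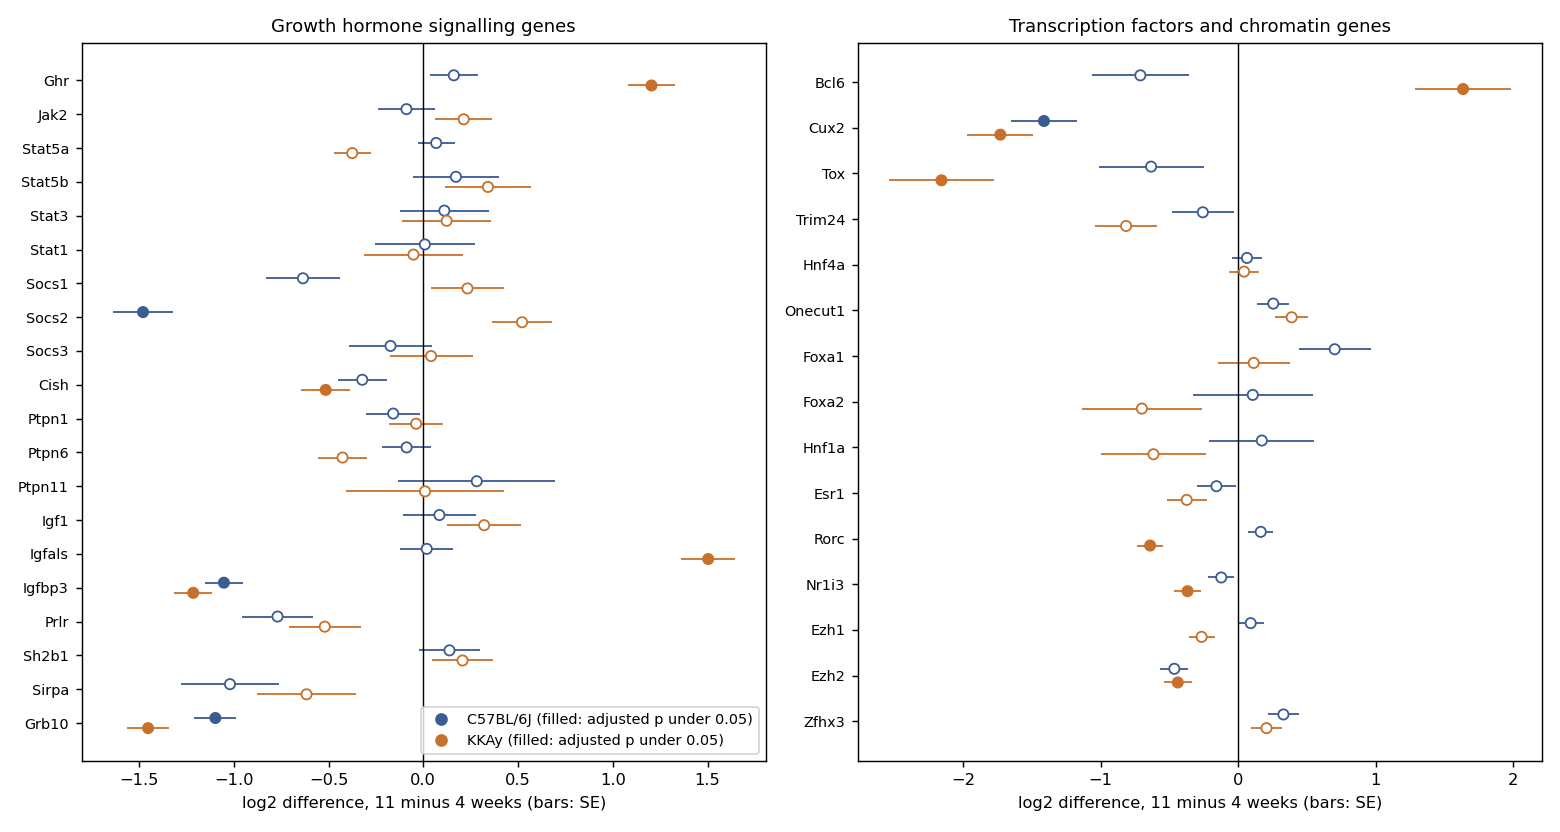
Change from 4 to 11 weeks of 20 growth hormone signalling genes (left) and 15 of the 16 transcription factors and chromatin genes (right), as the log2 difference of the brightest probe with its standard error, in C57BL/6J (blue) and KKAy (orange); filled circles passed an adjusted p of 0.05. Ghr and Igfals rose and Bcl6 rose in KKAy alone among the calls, Socs2 fell in C57BL/6J alone among the calls, and Cux2 fell in both strains.

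All 11 hepatocyte markers tested were well above background, with a summed relative signal of 2580 to 3300 in C57BL/6J at 4 weeks, 3460 to 3540 at 11 weeks, 2850 to 3250 in KKAy at 4 weeks and 3290 to 3600 at 11 weeks. Limma called 0 of the 11 with age in C57BL/6J (1 higher at an unadjusted p under 0.05), and 3 higher and 1 lower in KKAy. Between strains at 11 weeks 1 was higher and 3 were lower in KKAy. Markers of other cells moved with age as well. Over all genes 6.05% were called lower with age in C57BL/6J and 10.5% in KKAy. Called higher with age were 1.64% and 7.63%. Between strains 8.79% of all genes were lower in KKAy at 4 weeks and 11.4% at 11 weeks. Of 10 markers of dividing cells, 8 fell in C57BL/6J and 10 in KKAy, with summed signals of 8.78 to 9.86 and 9.84 to 11.9 at 4 weeks and of 1.8 to 1.93 and 1.5 to 1.7 at 11 weeks. Of 10 Kupffer cell and macrophage markers, 9 fell in C57BL/6J (153 to 180 at 4 weeks, 63.7 to 68.3 at 11 weeks) and 7 in KKAy (61 to 67.9, then 36.4 to 37.6), and 7 were lower in KKAy at 4 weeks and 5 at 11 weeks. Of 10 lymphocyte markers 5 fell in C57BL/6J (3.89 to 4.54, then 1.75 to 1.9) and 4 in KKAy (1.85 to 2.16, then 1.25 to 1.5). Of 13 stellate cell and fibroblast markers 3 fell in C57BL/6J and 8 in KKAy, and of 11 endothelial markers 1 and 5. Of 5 kidney markers only Aqp2 passed the background filter, and of 4 pancreas markers on the array Cela1 and Amy2 did. Amy2 rose with age in KKAy (0.84). Both Cela1 and Amy2 were called higher in KKAy at 11 weeks, where 9.81% of all genes were. Their summed signal at that age was 9.82 to 10.2 in KKAy and 5.93 to 6.2 in C57BL/6J. The part of these shifts in the falls of A1bg, Prom1 and Cux2 was not tested, and in RNA from whole liver fewer cells of a type and less RNA per cell cannot be told apart.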

How the data were processed

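The arrays held Cy3-labelled cRNA from liver. Per the file headers, spot intensity was deposited as Agilent Feature Extraction 9.5.1.1 gave it, with background subtracted; no normalization between arrays was applied. The deposited value table holds log2 values equal to the log2 intensity minus 1 constant per array (within 0.001 for 99.5% of probes, the 75th percentile near 0, column medians from -3.96 to -3.67); it ran in the same direction and was not centred across arrays.

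Flagged spots (59 to 89 per array) were left out and repeated spots averaged; no spot was saturated (0). For 3 of the 22 probes some of 10 repeated spots were left out, and no array was dropped. Log2 processed signal minus the array's 75th percentile was fitted by lmFit and eBayes (limma 3.58.1, R 4.3.3; 4 residual and 1.945 prior degrees of freedom) for probes well above background on every array of some group. A gene counted by its brightest probe (17049 genes). Probe names were updated through a RefSeq table (24356 by accession, 6298 by symbol, 2426 by older symbol; 8072 kept the file's name). Positions are the files' (mm8); whether probes lie in exons was not analysed here. Named genes were all 10 members, the 3 smallest adjusted p for age in C57BL/6J among called genes of each list, 9 regulators and the 2 most alike genes per member; Igfals, Onecut2, Cd24a, Cela1, Amy2 and Aqp2 were named after their values were seen. Some genes that the rule names are not reported here; they stay in the counts. Members and lists were chosen with earlier results of these data known. Alternatives were another background correction (normexp, offset 50), the deposited table, quantile and spike-in scaling, other probe filters, the replicate block, fits of 4 arrays and leaving out each array.

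Same-numbered arrays deviated together: the correlation of replicate 1 minus replicate 2 between groups was 0.530 to 0.676 for all 6 pairs of groups. The labels do not state what the number marks, and it goes with odd or even slide position. The procedure was tested on simulated data. Figures used matplotlib 3.10.9.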

Additional observations from a re-analysis of the deposited data

Results flagged for a closer look

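In 6 genes the change from 4 to 11 weeks differed between KKAy and C57BL/6J by the interaction term of the limma fit (KKAy change minus C57BL/6J change, log2 scale, n = 2 arrays a group). The values were 2.55 for Nox4 (adjusted p = 0.00392), 3.09 for Keg1 (adjusted p = 0.00171), 3.62 for Moxd1 (adjusted p = 0.024), 1.78 for Nudt7 (adjusted p = 0.0199), -3.52 for A1bg (adjusted p = 0.00233) and 3.86 for Ntrk2 (adjusted p = 0.0394). The values for Moxd1 and A1bg rest on bounds, since both 4-week groups of Moxd1 and both 11-week groups of A1bg were below background. The calls for Moxd1, Nudt7 and Ntrk2 were lost in most of the runs that left out 1 array. By the same term 1.81% of all genes were called higher and 1.5% lower. Nox4, Moxd1 and A1bg were called with age in both strains and in the same direction, whereas Keg1, Nudt7 and Ntrk2 were called in KKAy and not in C57BL/6J.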

How the results depend on the processing

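Of 32 called differences of the 10 genes, 19 kept their call and direction under every alternative run that tested them. Among these was every difference with age in KKAy except those of Cspg5 and Prom1. Moxd1, A1bg and Prom1 were not in the run with probes above background on all arrays, and the fits of 4 arrays gave no interaction. Of the 32, 1 changed direction, Prom1 between strains at 11 weeks (0.05 with normexp). Adjusted p-values are from limma. The counts of called genes were 1311 (age in C57BL/6J), 3082 (age in KKAy), 2565 (strain at 4 weeks), 3615 (strain at 11 weeks) and 565 (interaction). With the replicate block they were 5411, 8939, 7298, 9239 and 4977, and 7, 9, 7, 8 and 7 of the 10 genes were called; besides the calls named in the report the block changed none. With no filter on dim probes the counts were 663, 1354, 1467, 2067 and 104, and 3 of the 10 genes had a called interaction. Normexp gave 625, 1840, 2364 and 315 for all comparisons but strain at 4 weeks, and spike-in scaling gave 335 for the interaction. A fit of the 4 arrays compared gave 576, 1379 and 2000 for age in KKAy and strain at 4 and 11 weeks, with 3 of the 10 genes at 4 weeks. With probes above background on all arrays, which leaves 7 of the 10 genes, 2 of the 7 were called for age in C57BL/6J and 5 between strains at 11 weeks, beside 1030 and 3062 of 14667 genes in all. Leaving out 1 array at a time gave 369 to 1238, 1235 to 2211, 1244 to 2537, 1431 to 3024 and 51 to 237 genes, and 2 to 5, 9 to 9, 2 to 5, 6 to 8 and 3 to 4 of the 10.

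Uncalled values near 0 changed sign. With normexp these were Prom1 (0.08) and Ntrk2 (0.002) with age in C57BL/6J and Moxd1 at 4 weeks (0.39). With quantile normalization they were Nudt7 with age in C57BL/6J (-0.056) and Egfr with age in KKAy (-0.065) and at 11 weeks (-0.068). With spike-in scaling they were Egfr with age in KKAy (-0.072), Nudt7 (0.16) and Susd4 (0.006) at 4 weeks, and Susd4 at 11 weeks (0.054). Leaving out 1 array at a time gave -0.934 to 0.149 for Ntrk2 and -0.079 to 0.154 for Nudt7 with age in C57BL/6J, -0.861 to 0.258 for Moxd1 at 4 weeks, -0.340 to 0.251 for Susd4 at 11 weeks and -0.058 to 0.533 for the Susd4 interaction. The cause of these shifts was not tested. Signal over background limits Moxd1, A1bg, Prom1 and Cux2, whose dim groups give bounds only, and 2 arrays a group limit every SE.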
